A study of Homo sapiens with 12 samples.

Results

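The FOXO1 axis and PI3K feedback genes were examined in SU-DHL-4, an established cell line of germinal-centre-type diffuse large B-cell lymphoma (DLBCL) that was derived from a peritoneal effusion and is labelled wild type. The members were the rows of the count table with 9 gene symbols. They were the transcription factors FOXO1 and FOXO3, the PI3K subunit PIK3CD, the PI3K brakes PIK3IP1 and INPP5D, the adaptor IRS2, the recombination genes RAG1 and RAG2, and the cyclin CCNG2. The table held 46863 gene symbols, of which 16835 had enough counts to be tested, and 6 of the 9 members were among these. IRS2, RAG1 and RAG2 were not.

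All cells were exposed for 72 h. The 4 groups received DMSO as the vehicle, 1 µM Ento (entospletinib, an inhibitor of the kinase SYK), 0.01 µM AZD (AZD5153, a bivalent inhibitor of BET bromodomain proteins), or Ento+AZD at the same concentrations. Each group had 3 libraries of polyadenylated RNA, which the series describes as biological replicates, and only 1 cell line was profiled. Levels are given in CPM, the count of a gene scaled by TMM to the size of its library.

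In B cells, the B-cell receptor signals through SYK to PI3K, whose p110δ catalytic subunit is encoded by PIK3CD and makes the membrane lipid that recruits the kinase AKT. AKT phosphorylates FOXO factors, which then leave the nucleus, so that FOXO proteins act on their target genes when the pathway is quiet. PI3K signalling is held back by INPP5D, also called SHIP1, which removes a phosphate from that lipid, and by PIK3IP1, a membrane protein that binds the catalytic subunit. RNA levels do not show where FOXO proteins are or whether they are phosphorylated.

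The promoters of FOXO1, the PI3K subunit PIK3CD and the PI3K brakes PIK3IP1 and INPP5D are shown first. All are 300 bases long, from 250 bases before to 50 bases after a RefSeq start site on GRCh38.p14, and are written along the strand of the gene. Capitals mark a FOXO core motif (GTAAACA or its reverse complement TGTTTAC) or an insulin response core (CAAAACA or its reverse complement TGTTTTG). The windows are chr22:31292439-31292738 on the minus strand for PIK3IP1, chr1:9651481-9651780 on the plus strand for PIK3CD, chr13:40666592-40666891 on the minus strand for FOXO1 and chr2:233060092-233060391 on the plus strand for INPP5D.
PIK3IP1: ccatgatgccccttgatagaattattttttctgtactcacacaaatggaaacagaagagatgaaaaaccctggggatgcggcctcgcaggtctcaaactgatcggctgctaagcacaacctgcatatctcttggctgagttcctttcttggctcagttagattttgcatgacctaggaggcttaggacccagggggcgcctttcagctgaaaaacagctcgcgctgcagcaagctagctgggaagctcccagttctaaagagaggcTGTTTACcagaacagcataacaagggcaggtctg
PIK3CD: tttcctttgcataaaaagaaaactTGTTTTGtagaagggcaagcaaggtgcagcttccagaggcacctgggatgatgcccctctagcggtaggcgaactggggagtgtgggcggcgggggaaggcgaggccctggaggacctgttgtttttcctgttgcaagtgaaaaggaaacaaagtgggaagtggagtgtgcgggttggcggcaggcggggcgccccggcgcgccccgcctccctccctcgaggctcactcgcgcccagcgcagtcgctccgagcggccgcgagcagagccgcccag
FOXO1: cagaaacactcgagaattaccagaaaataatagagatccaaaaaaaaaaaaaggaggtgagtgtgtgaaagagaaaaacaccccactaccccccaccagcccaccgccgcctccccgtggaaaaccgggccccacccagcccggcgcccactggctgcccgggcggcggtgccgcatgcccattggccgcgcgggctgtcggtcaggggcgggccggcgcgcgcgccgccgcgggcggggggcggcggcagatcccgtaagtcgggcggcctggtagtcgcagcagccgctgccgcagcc
INPP5D: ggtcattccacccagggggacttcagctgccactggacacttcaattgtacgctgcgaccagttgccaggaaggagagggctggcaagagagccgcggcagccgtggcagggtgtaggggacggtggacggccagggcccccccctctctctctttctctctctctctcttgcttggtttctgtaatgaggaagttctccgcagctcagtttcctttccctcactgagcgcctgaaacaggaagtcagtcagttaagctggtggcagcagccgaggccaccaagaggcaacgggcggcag

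RefSeq gave 15 such windows for the 9 members, with several each for FOXO3, PIK3CD and PIK3IP1. For PIK3CD and PIK3IP1 the window printed is the one with a match, and their other windows had none. The FOXO core occurred in 1 of the 15 windows, that printed for PIK3IP1, 16 bases after the start site and on the opposite strand. It occurred in 3.42% of all 35116 windows of this length, and in a window of 4.19% of genes. The insulin response core was found in 4.92% of all windows and in a window of 6.05% of genes. Among the members it occurred in the printed PIK3CD window 226 bases before the start site and in the IRS2 window 40 bases before it. The remaining members lie at chr6:108559835-108684774 (FOXO3, plus strand), chr4:77157207-77433388 (CCNG2, plus), chr13:109752695-109786583 (IRS2, minus), chr11:36510372-36593156 (RAG1, plus) and chr11:36575574-36598279 (RAG2, minus) in GENCODE v44 on GRCh38. The motif matches describe letters only, and the RNA data do not show whether a factor binds there.

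The libraries held between 18121993 and 24675830 counts, so that 1 count was worth 0.0393 to 0.0564 CPM. All 8 listed germinal-centre B-cell markers were expressed, among them PAX5 at 335 to 469 CPM and MS4A1 at 1700 to 3660 CPM. Of the 10 markers of T cells, myeloid cells, fibroblasts and epithelium, CD3D, COL1A2 and KRT8 were at 0 in all 12 libraries, CD3E lay at 0.481 to 2.14 CPM, CSF1R at 0.0786 to 0.374 CPM and the other 5 at no more than 3 counts. The summed plasma cell markers SDC1, PRDM1 and XBP1, nearly all of it XBP1, lay at 2.51 to 3.42 CPM with DMSO, 4.96 to 9.21 CPM with Ento, 4.55 to 7.75 CPM with AZD and 6.99 to 12.1 CPM with Ento+AZD, and their part in the results was not tested. In bulk RNA, a lower level per cell and fewer cells of 1 kind cannot be told apart.

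FOXO1, PIK3CD and PIK3IP1 rose with Ento alone, and none of the 6 tested members fell. A gene was called where its adjusted p was under 0.05 in edgeR's quasi-likelihood test, which 8.32% of all tested genes met for Ento (4.66% rose and 3.66% fell). With AZD alone, FOXO1 rose and PIK3CD and CCNG2 fell, against 22.2% of all genes called (9.57% rose and 12.7% fell). With Ento+AZD, FOXO1, PIK3IP1 and INPP5D rose and PIK3CD fell, against 40.0% of all genes called (19.2% rose and 20.8% fell). No member changed more than 2-fold against DMSO, so 0 of 6 met the study's criterion for a differentially expressed gene, which 1.63% of all genes met with Ento, 3.19% with AZD and 8.32% with Ento+AZD. The set was described as FOXO factors, PI3K brakes and transcripts that rise when B-cell receptor to PI3K signalling is blocked. Only the last are described as rising. INPP5D, CCNG2 and FOXO3 had no called rise with Ento, and IRS2, RAG1 and RAG2 were at or near 0 in every group. Without the replicate block, the calls fell to 0, 1 and 0 members in the 3 contrasts against DMSO, and those of all genes to 0.214%, 1.94% and 14.2%. These 3 contrasts share the DMSO libraries.

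**Figure D1:**
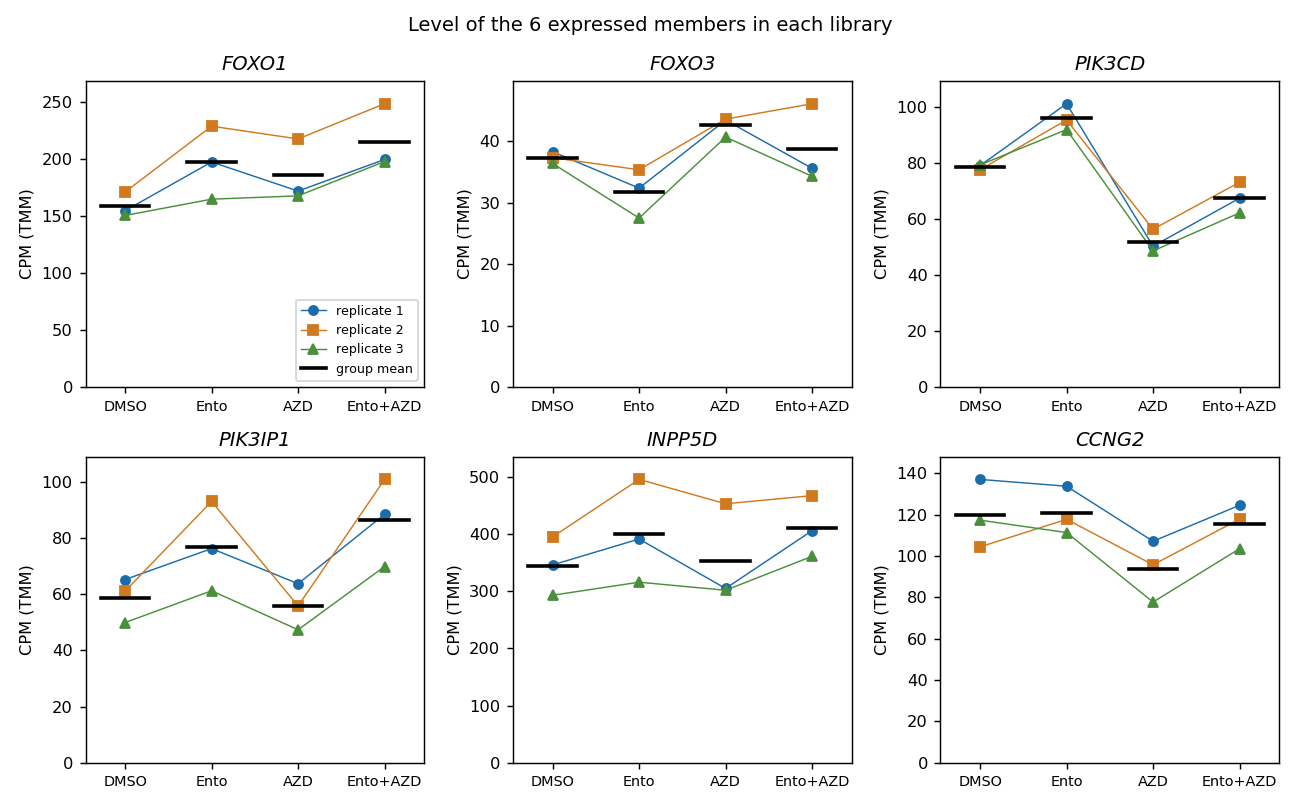
Level of the 6 tested members in CPM on a linear axis from 0, for the 4 groups, with 1 point for each library joined by replicate number and a black bar at the group mean. PIK3CD takes 4 separate levels, while the highest FOXO1 and PIK3IP1 means are those of Ento+AZD, at 215 and 86.4 CPM.

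PIK3CD, which encodes the PI3K subunit most used by lymphocytes, moved in opposite directions under the single agents. It measured 79.0, 77.6 and 79.3 CPM with DMSO (replicates 1 to 3), 101 (replicate 1), 95.3 and 91.9 CPM with Ento, 50.3, 56.3 and 48.6 CPM with AZD, and 67.4, 73.1 and 62.2 CPM with Ento+AZD. No pair of the 4 groups overlapped, in the order Ento, DMSO, Ento+AZD and AZD from high to low. Of all genes, 15.1%, 24.4% and 39.2% had libraries of Ento, AZD and Ento+AZD apart from DMSO, 23.2% and 17.1% had Ento+AZD apart from Ento and from AZD, and 21.5% had the single agents apart. Ento raised it by 0.29 on the log2 scale (SE 0.08, edgeR adjusted p = 0.0314) and AZD lowered it, with a log2 fold change of -0.61 (SE 0.08, edgeR adjusted p = 0.000358). With Ento+AZD it fell by 0.22 on the log2 scale (SE 0.08, edgeR adjusted p = 0.0324).

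The direct contrasts place the combination between the single agents for PIK3CD. It was lower with Ento+AZD than with Ento, with a log2 fold change of -0.51 (edgeR adjusted p = 0.000751), and higher than with AZD by 0.39 (edgeR adjusted p = 0.00768). Between the single agents the difference was 0.90, or 1.86-fold (edgeR adjusted p = 5.41e-06). In those 3 contrasts 2, 3 and 4 of the 6 members were called, against 20.4%, 11.9% and 14.7% of all genes. The sum of the 2 single-agent changes was -0.32 and the combination gave -0.22, so that the interaction was 0.10 (95% interval -0.14 to 0.33, edgeR adjusted p = 0.798).

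The fall of PIK3CD with AZD kept its call when any of the 12 libraries was left out, with a highest edgeR adjusted p of 0.00519, and so did its differences between Ento+AZD and Ento (0.00884) and between Ento and AZD (0.000133). Without the replicate block these 3 contrasts had edgeR adjusted p of 0.0143, 0.0263 and 0.000938. Its rise with Ento was less firm. Its edgeR adjusted p was 0.238 without the replicate block, 0.0654 without DMSO replicate 1, 0.092 without DMSO replicate 2, 0.178, 0.0754 and 0.0879 without Ento replicates 1, 2 and 3, 0.0513 without AZD replicate 3 and 0.0547 without Ento+AZD replicate 1. Its fall with Ento+AZD had an edgeR adjusted p of 0.11 without the block, 0.0636 without the filter on low counts, 0.0556 and 0.115 without DMSO replicates 1 and 3, and 0.116 and 0.149 without Ento+AZD replicates 1 and 3. The difference between Ento+AZD and AZD had 0.167 without the block and 0.0562 without AZD replicate 1. At the PIK3CD locus, 1.98% of exonic bases lie opposite the gene CLSTN1, and the use of the strand in counting is not given in the sources used here. CLSTN1 had log2 fold changes of 0.15 with Ento and -0.20 with AZD, neither called (edgeR adjusted p = 0.207 and 0.0538). It was higher with Ento+AZD than with AZD by 0.36 (edgeR adjusted p = 0.00674) and with Ento than with AZD by 0.35 (edgeR adjusted p = 0.00405), the directions PIK3CD took, with 0.181 and 0.0519 without the block. With Ento+AZD, CLSTN1 gave 0.16 against DMSO (edgeR adjusted p = 0.0904) and 0.01 against Ento (edgeR adjusted p = 0.953). Neither was called, while PIK3CD fell in both contrasts. The part of CLSTN1 reads in the PIK3CD values was not tested.

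FOXO1, the main FOXO factor of germinal-centre B cells, had its highest mean with Ento+AZD. It measured 155, 171 and 151 CPM with DMSO, 197, 229 and 165 CPM with Ento, 172, 218 and 168 CPM with AZD, and 199.6, 248.5 and 197.8 CPM with Ento+AZD. The Ento+AZD libraries lay above all DMSO libraries, while those of Ento and of AZD overlapped DMSO. All 3 replicate-numbered pairs were higher than DMSO in each contrast. FOXO1 rose by 0.30 on the log2 scale with Ento (SE 0.07, edgeR adjusted p = 0.0222), by 0.22 with AZD (SE 0.07, edgeR adjusted p = 0.0475) and by 0.43 with Ento+AZD (SE 0.07, edgeR adjusted p = 0.000433), the last being 1.35-fold.

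The FOXO1 change with Ento+AZD kept its call when any library was left out and was lost without the block (edgeR adjusted p = 0.057). The change with Ento was lost without the block (0.431), without DMSO replicate 2 (0.0781) and without Ento replicates 1 (0.142) and 2 (0.122). The change with AZD was close to the threshold. It was lost without the block (0.389), in DESeq2 (0.0517), without the filter on low counts (0.0775), and without DMSO replicates 1 (0.0641) and 2 (0.167), Ento replicates 1 (0.0614) and 2 (0.0651), AZD replicates 1 (0.0608), 2 (0.186) and 3 (0.165), or Ento+AZD replicates 1 (0.0624) and 3 (0.0668). Between the single agents FOXO1 differed by 0.08 (95% interval -0.07 to 0.24, edgeR adjusted p = 0.492), and Ento+AZD against AZD gave 0.22 (95% interval 0.06 to 0.37, edgeR adjusted p = 0.0718). Against Ento, Ento+AZD gave 0.13 (95% interval -0.03 to 0.29, edgeR adjusted p = 0.227). That difference was not called, and the libraries of Ento+AZD and Ento overlapped. Of the exonic bases of FOXO1, 22.7% are shared with an unnamed gene on the same strand.

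FOXO3, a FOXO factor with overlapping targets, was lower with Ento than with AZD. Its libraries held 38.3, 37.3 and 36.4 CPM with DMSO, 32.4, 35.4 and 27.5 CPM with Ento, 43.5, 43.6 and 40.7 CPM with AZD, and 35.6, 46.1 and 34.3 CPM with Ento+AZD. The Ento libraries lay below and the AZD libraries above all DMSO libraries. Neither difference was called, with log2 fold changes of -0.24 for Ento (95% interval -0.44 to -0.04, edgeR adjusted p = 0.128) and 0.19 for AZD (95% interval -0.01 to 0.39, edgeR adjusted p = 0.162). The direct contrast of Ento against AZD was called, at -0.43 (edgeR adjusted p = 0.00711), and was lost without the block (0.0961) and without Ento replicate 3 (0.0558). FOXO3 was also higher with Ento+AZD than with Ento, by 0.28 (edgeR adjusted p = 0.0473), and this call was lost without the block (0.249), without the filter (0.0606) or without any of 9 libraries: DMSO replicate 1 (0.0501), Ento replicates 1 (0.109), 2 (0.0779) and 3 (0.222), AZD replicates 1 (0.056), 2 (0.0614) and 3 (0.0588), and Ento+AZD replicates 2 (0.233) and 3 (0.0911).

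**Figure D2:**
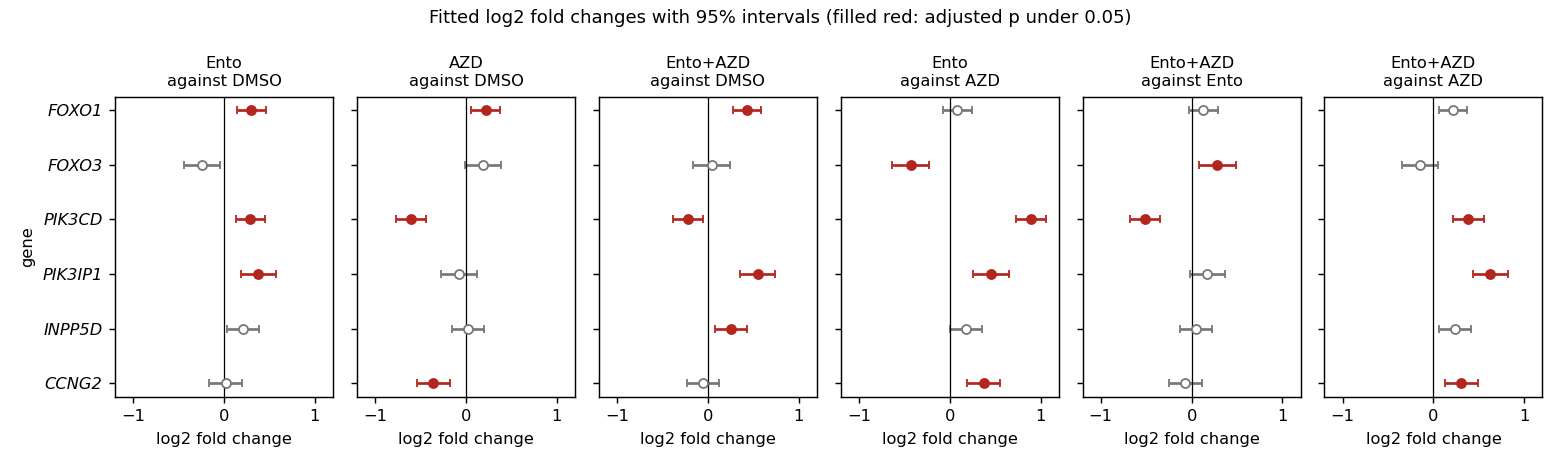
Fitted log2 fold changes of the 6 tested members in 6 contrasts, with 95% intervals as bars and filled red points where the edgeR adjusted p was under 0.05. PIK3CD lies to the right of 0 with Ento (0.29) and to the left with AZD (-0.61), and FOXO1 and PIK3IP1 reach 0.43 and 0.55 with Ento+AZD.

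PIK3IP1, which binds the PI3K catalytic subunit and restrains it, rose with Ento and with Ento+AZD and was not called with AZD alone. It measured 65.3, 61.2 and 49.9 CPM with DMSO, 76.3, 93.1 and 61.3 CPM with Ento, 63.8, 55.9 and 47.4 CPM with AZD, and 88.5, 101 and 69.9 CPM with Ento+AZD. The Ento+AZD libraries were above all DMSO and all AZD libraries, while those of Ento overlapped DMSO. PIK3IP1 rose by 0.38 on the log2 scale with Ento (SE 0.09, edgeR adjusted p = 0.0211) and by 0.55 with Ento+AZD (SE 0.09, edgeR adjusted p = 0.000355), whereas AZD alone gave -0.08 (95% interval -0.27 to 0.12, edgeR adjusted p = 0.581). It was higher with Ento+AZD than with AZD by 0.63 (edgeR adjusted p = 0.00146) and higher with Ento than with AZD by 0.45 (edgeR adjusted p = 0.00414). Ento+AZD against Ento gave 0.17 (95% interval -0.02 to 0.37, edgeR adjusted p = 0.198), which was not called, and these libraries overlapped. The interaction was 0.25 (95% interval -0.03 to 0.53, edgeR adjusted p = 0.542).

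Leaving out single libraries ended the PIK3IP1 call for Ento without DMSO replicate 2 (edgeR adjusted p = 0.0719) and without Ento replicate 2 (0.16), and the unblocked fit gave 0.437. The Ento+AZD call survived the loss of any library and had an edgeR adjusted p of 0.0557 without the block. Against AZD, the unblocked values were 0.244 for Ento+AZD and 0.209 for Ento. The gene PIK3IP1-DT, which starts beside PIK3IP1 on the opposite strand and covers 0.946% of its exonic bases, was far rarer, with group means between 0.578 and 1.49 CPM.

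INPP5D, the lipid phosphatase SHIP1, was the highest member per kilobase of exonic bases, at 39.7 CPM per kb with DMSO. FOXO1 had 26.7, PIK3CD 8.22 and FOXO3 4.87 on the same scale. The length was that of all GENCODE v44 exons of a gene together, so this order depends on the annotation. INPP5D measured 346, 395 and 293 CPM with DMSO, 391, 495 and 316 CPM with Ento, 305, 453 and 302 CPM with AZD, and 406, 467 and 361 CPM with Ento+AZD, so that all groups overlapped. INPP5D rose with Ento+AZD by 0.26 (SE 0.08, edgeR adjusted p = 0.0217). With Ento it gave 0.20 (95% interval 0.03 to 0.38, edgeR adjusted p = 0.139) and with AZD 0.02 (95% interval -0.15 to 0.20, edgeR adjusted p = 0.877). The call was lost without the block (0.371), without DMSO replicate 2 (0.0926) and without Ento+AZD replicates 1 (0.088) and 3 (0.111).

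CCNG2, an atypical cyclin that is associated with cell-cycle exit and is a classic FOXO target, was lower with AZD and not with Ento. It measured 137, 104 and 117 CPM with DMSO, 134, 118 and 111 CPM with Ento, 107, 95.7 and 77.7 CPM with AZD, and 125, 118 and 104 CPM with Ento+AZD. The AZD libraries overlapped DMSO but not Ento. With Ento the log2 fold change was 0.02 (95% interval -0.16 to 0.19, edgeR adjusted p = 0.929), and with AZD CCNG2 fell by 0.36 (SE 0.08, edgeR adjusted p = 0.00881). This fall was lost without AZD replicate 3 (0.0903) and without the block (0.175). With Ento+AZD the change was -0.05 (95% interval -0.23 to 0.13, edgeR adjusted p = 0.65).

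CCNG2 was higher with Ento+AZD than with AZD by 0.31 (edgeR adjusted p = 0.0307), and it was 0.38 higher with Ento than with AZD (edgeR adjusted p = 0.00818). The first call was lost without the block (0.432), without Ento replicate 1 (0.0521), AZD replicates 1 (0.0883), 2 (0.0574) and 3 (0.157), and Ento+AZD replicates 1 (0.0674), 2 (0.122) and 3 (0.0802). The second was lost without the block (0.187) and without AZD replicate 3 (0.0854). The interaction for CCNG2 was 0.29 (95% interval 0.04 to 0.55), with an unadjusted p of 0.0273 in edgeR and an adjusted p of 0.474. No member had a called interaction, and neither had any of the 16835 genes in edgeR, although 1652 genes (9.81%) had an unadjusted p under 0.05 and DESeq2 called 7. Over all genes, edgeR called 213 interactions without DMSO replicate 2 and 278 without the filter, with 0 members called in any fit with a library left out.

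IRS2, which links the insulin and IGF receptors to PI3K, and RAG1 and RAG2, the enzyme that cuts DNA for V(D)J recombination, were at or near 0 counts. IRS2 was counted 2, 4 and 9 times in the DMSO libraries, 3, 2 and 5 times with Ento, 4, 2 and 3 times with AZD, and 0, 0 and 6 times with Ento+AZD. RAG1 was counted 8, 2 and 9 times with DMSO, 7, 0 and 4 times with Ento, 6, 0 and 0 times with AZD, and 5, 8 and 2 times with Ento+AZD. RAG2 had 0 counts in all 12 libraries. For any 1 library taken alone, 0 counts allow a level of up to 0.118 to 0.169 CPM (3 counts, counting error only) if its reads were counted. No library reached 10 counts for any of them, so they were not tested in the filtered table. In the unfiltered fit neither IRS2 nor RAG1 was called, and the lowest edgeR adjusted p was 0.215, for RAG1 with AZD. Standard errors against DMSO ran from 0.568 (RAG1 with Ento+AZD) to 0.82 (IRS2 with Ento+AZD) on the log2 scale. The log2 fold change of RAG1 was -1.48 with AZD and 1.49 for Ento+AZD against AZD (edgeR adjusted p = 0.215 and 0.3). Differences of that size were thus not called at this depth either. RAG2 shares 16.8% of its exonic bases with RAG1 and 10.6% with IFTAP, a gene that also had 0 counts in every library. How reads in shared exons were counted is not given in the sources used here, so a 0 from the counting and a 0 from the cells cannot be told apart for RAG2.

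**Figure D3:**
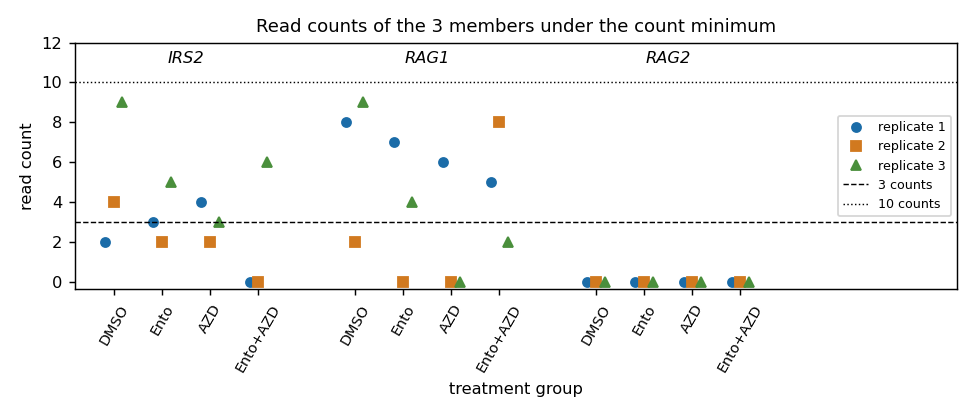
Read counts of IRS2, RAG1 and RAG2 in the 12 libraries on a linear axis, with lines at 3 and 10 counts. The largest value is 9 counts and RAG2 is at 0 throughout.

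The other genes of the pathway were read from 5 lists with 92 genes, 83 of them tested. These lists were chosen with earlier results of these data known. With Ento 9 rose and 6 fell, with AZD 9 rose and 18 fell, and with Ento+AZD 22 rose and 19 fell, which is 15, 27 and 41 genes against 8.32%, 22.2% and 40.0% of all genes. The median log2 fold change over the lists was 0.01 with Ento, 0.00 with AZD and 0.08 with Ento+AZD, against 0.01 for all genes in each case. Without the replicate block the counts were 1, 6 and 16 genes, beside 0.214%, 1.94% and 14.2% of all genes.

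Among the 16 tested PI3K subunits and adaptors, 2 rose with Ento, PIK3R5 among them, while 3 rose with AZD, PIK3C3 and IRS1 among them, and GAB2 fell. With Ento+AZD, 6 of them rose and GAB2 fell. Of the 14 PI3K brakes and lipid phosphatases, DOK3 rose and 2 fell with Ento, DDIT4 among them. With AZD, INPP4A and TSC2 rose, and INPPL1, INPP5E, TRIB3, DOK1 and DOK2 fell. With Ento+AZD, INPP4A, PHLPP2, TSC1 and TSC2 rose and 7 brakes fell. Of the 12 AKT and mTOR kinase genes, SGK1 rose with Ento, PDPK1, MTOR and GSK3B rose and RHEB fell with AZD, and with Ento+AZD PDPK1, SGK1, MTOR and GSK3B rose and AKT1 and RHEB fell. Of the 12 FOXO family members and regulators, none rose against DMSO. SKP2 fell in all 3 contrasts, and FOXO4 and FOXO6 fell with AZD and with Ento+AZD. Of all genes, 4.66% rose and 3.66% fell with Ento, 9.57% rose and 12.7% fell with AZD. With Ento+AZD, 19.2% rose and 20.8% fell.

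**Figure D4:**
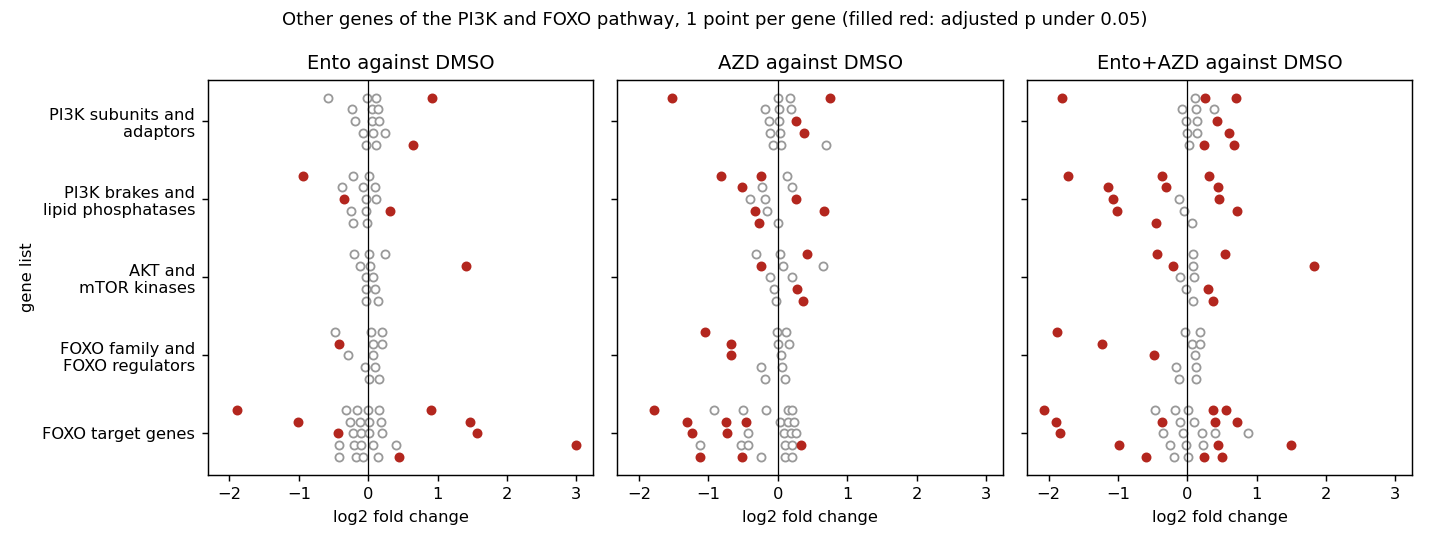
Log2 fold changes of the 83 tested genes of 5 pathway lists against DMSO, 1 point per gene, filled red where the edgeR adjusted p was under 0.05. The AZD panel has 18 genes that fell against 9 that rose, beside 12.7% and 9.57% of all genes.

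Among the 29 tested FOXO targets, 5 rose and 3 fell with Ento, against 4.66% and 3.66% of all genes. S1PR1, which guides lymphocyte traffic, and the death-pathway genes BCL2L11 and TNFSF10 were among the increases. The cell-cycle inhibitors CDKN1A and CDKN1B, textbook FOXO targets, fell, as did MXI1. S1PR1 was scarce, with 4 to 8 counts per library with DMSO and 13 to 22 with Ento. CDKN1A had 31 to 168 counts with DMSO and 16 to 25 with Ento. Its log2 fold change of -1.89 became -0.98 without DMSO replicate 3 (edgeR adjusted p = 0.056). With Ento, the kinase gene SGK1 rose by 1.41 (edgeR adjusted p = 0.00233).

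Of the 15 Ento calls, 4 held in every fit with a library left out, SGK1 and BCL2L11 among them. Without the block SGK1 had an edgeR adjusted p of 0.0659 and BCL2L11 of 0.298. The other 11 calls were each lost without at least 1 library, with adjusted p up to 0.204. Without Ento replicates 1, 2 and 3, 9, 10 and 7 of them were lost, so that 6, 5 and 8 of the 15 were left. Without DMSO replicates 1, 2 and 3, 3, 3 and 6 were lost, and the call of DOK3 was also lost without AZD replicate 3 (0.0583) and without Ento+AZD replicate 1 (0.0539). The Ento calls of DDIT4 and CDKN1B were also lost in DESeq2 (adjusted p = 0.0901 and 0.0997), and S1PR1 had no adjusted p there. Without the block, CDKN1B had an edgeR adjusted p of 0.483.

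With AZD, 8 of the 29 FOXO targets fell and 1, CAT, rose, against 12.7% and 9.57% of all genes. CDKN1B, which encodes a cell-cycle inhibitor, fell by 1.78 (edgeR adjusted p = 0.000911), IGF1R by 1.31 (edgeR adjusted p = 0.00324) and FBXO32 by 1.23 (edgeR adjusted p = 0.00303), and without the block CDKN1B had 0.108 and FBXO32 0.202. The adaptor GAB2 fell by 1.53 (edgeR adjusted p = 0.00189) and TRIB3, which binds AKT, by 0.82 (edgeR adjusted p = 0.000532). PDPK1, the kinase that activates AKT, rose by 0.42 (edgeR adjusted p = 0.00278). SKP2, whose product marks FOXO1 for degradation, fell by 0.68 with AZD (edgeR adjusted p = 0.000375) and by 1.23 with Ento+AZD (edgeR adjusted p = 1.82e-06). Of the 27 calls, 13 held when any library was left out. The other 14 (PIK3C3, INPPL1, INPP4A, INPP5E, TSC2, DOK1, DOK2, MTOR, RHEB, GSK3B, FOXO6, IL7R, GADD45A and KLF6) were lost without AZD replicate 3, and 11 of them also without AZD replicate 2, which left 13 and 16 of the 27. DESeq2 did not call INPP5E (adjusted p = 0.0642), DOK1 (0.0622), DOK2 (0.0791) or RHEB (0.0559) with AZD, and gave FOXO6 no adjusted p.

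With Ento+AZD, 8 of the 29 FOXO targets rose and 6 fell, against 19.2% and 20.8% of all genes. The brake DDIT4, which restrains mTOR, fell by 1.71 (edgeR adjusted p = 0.000189), DOK2 by 1.15 (edgeR adjusted p = 0.000162) and GAB2, an adaptor of the subunit list, fell by 1.80 (edgeR adjusted p = 0.000214). SGK1 rose by 1.83 (edgeR adjusted p = 3.98e-05) and PDPK1 by 0.55 (edgeR adjusted p = 0.000124). IL7R, a FOXO1 target in lymphocytes, fell by 2.06 (edgeR adjusted p = 5.74e-05; 0.0529 without the block). Of the 41 calls, 25 held when any library was left out, including the genes just named. The other 16 were lost without at least 1 library, of which 13 without Ento+AZD replicate 3, 9 without Ento+AZD replicate 1 and 9 without DMSO replicate 2, with adjusted p up to 0.223. FOXO4 was among these (0.0523 without Ento+AZD replicate 1), as were TSC1, PHLPP2, MTOR and AKT1. DESeq2 did not call PIK3R5 with Ento+AZD (adjusted p = 0.088).

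The pattern of FOXO1 across the 12 libraries, with the replicate number removed, was most like that of RUFY1 (r = 0.974), ZNF767P (r = 0.973), LOC112268063 (r = 0.973), GIT2 (r = 0.971) and NCOA7 (r = 0.965). These values describe libraries that share groups and scaling, and the genes were picked for them. Among the members, FOXO1 varied with INPP5D (r = 0.815, 12 libraries) and PIK3IP1 (r = 0.737), PIK3CD with CCNG2 (r = 0.849) and against FOXO3 (r = -0.818), likewise as descriptions over the same libraries.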

How the data were processed

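Polyadenylated RNA of SU-DHL-4 was sequenced as single reads. The authors trimmed them, aligned to GRCh38.p13 with Rsubread, which also gave the counts per gene, and deposited the raw counts. The strand setting, the treatment of reads that match several genes and the annotation release are not given in the sources used here. The deposited log2 table was not used. Groups and replicate numbers came from the sample labels.

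Counts were analysed with edgeR 4.0.16 in R 4.3.3 (filterByExpr by group, minimum count 10 and minimum total 15, then TMM). The quasi-likelihood model covered the 12 libraries, with group and replicate number (taken as the batch of the study's own model) as covariates. P-values were adjusted by Benjamini-Hochberg over 16835 genes. Standard errors were derived from the fold change and its F statistic. Libraries with the same number deviated together (correlations of 0.22 to 0.716 in 18 pairs, against -0.64 to 0.336 in 36 pairs with different numbers), so the numbers were treated as pairing them. Alternatives were no block, DESeq2 1.42.0, RLE scaling, no filter, only the 2 groups compared, and each library left out. The model was also run on simulated data without a replicate effect and with planted changes larger than those of any member. That run cannot test the replicate block or changes as small as those of the members.

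The members and lists were chosen with earlier results of these data known. Besides the members, the text names up to 3 called genes with the largest change of each list and contrast, any gene behind a count of 5 or fewer, some further called genes as examples, and the 5 genes most like FOXO1. The same rule for IRS2 could not be applied, since IRS2 did not pass the filter. Some genes that this rule covers are not reported here. Exon overlaps are from GENCODE v44, promoters from RefSeq.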

Additional observations from a re-analysis of the deposited data

How the results depend on the processing

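The largest effect came from the replicate block. Without it, the members called were 0 for Ento, 1 for AZD and 0 for Ento+AZD against DMSO, 1 for Ento+AZD against Ento, 0 for Ento+AZD against AZD and 1 for Ento against AZD, and the listed pathway genes called were 1, 6 and 16 for the contrasts against DMSO. Over all genes, the unblocked fit called 1.22%, 0.101% and 3.2% in the last 3 of these member contrasts. Fitting only the 2 groups compared gave 1 member for Ento, 2 for Ento+AZD and 5 for Ento+AZD against AZD, and fitting without the filter gave 1 for Ento+AZD against Ento. Those 4 fits called 8.2%, 30.1%, 17.9% and 12.5% of all genes. Leaving out 1 library gave 0 to 3 members for Ento, 1 to 3 for AZD, 2 to 4 for Ento+AZD, 1 to 2 for Ento+AZD against Ento, 1 to 4 for Ento+AZD against AZD and 3 to 4 for Ento against AZD, and 5 to 17, 13 to 28 and 28 to 41 pathway genes. Over all genes, 2.48% to 9.8%, 7.26% to 24.0% and 28.3% to 39.2% were then called against DMSO. For Ento+AZD against Ento the range was 8.13% to 23.7%, for Ento+AZD against AZD 3.44% to 15.2%, and for Ento against AZD 6.67% to 17.6%. Members called for Ento were 0 without DMSO replicate 2, 1 without Ento replicate 1 and 0 without Ento replicate 2, for AZD 1 without AZD replicate 3, for Ento+AZD 2 without Ento+AZD replicate 1 or 3, and for Ento+AZD against AZD 1 without AZD replicate 1. The cause was not tested. Signs turned only for uncalled values. The ranges that follow are of log2 fold changes over all alternatives except the fit of only the 2 groups compared. CCNG2 ranged from -0.08 (without DMSO replicate 2) to 0.088 with Ento and from -0.152 to 0.024 (without DMSO replicate 3) with Ento+AZD. PIK3IP1 with AZD ranged from -0.147 to 0.011 (without AZD replicate 2). INPP5D with AZD ranged from -0.05 (without AZD replicate 2, and -0.025 without DMSO replicate 2) to 0.112. For Ento+AZD against Ento, INPP5D ranged from -0.005 (without Ento replicate 3) to 0.111. FOXO3 with Ento+AZD ranged from -0.063 (without Ento+AZD replicate 2, and -0.038 without DMSO replicate 2) to 0.116. The alternatives for the contrasts between exposed groups and for single pathway genes were chosen after seeing the data.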

Other observations

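PIK3IP1-DT, the gene that starts beside PIK3IP1 on the opposite strand, rose with AZD by 1.09 on the log2 scale (edgeR adjusted p = 0.00932) and with Ento+AZD by 1.33 (edgeR adjusted p = 0.000921), whereas PIK3IP1 itself gave -0.08 with AZD. Its group means were 0.578 CPM with DMSO, 1.10 with Ento, 1.25 with AZD and 1.49 with Ento+AZD, from 12 to 41 counts per library. The AZD call was lost without AZD replicate 3 (0.0535) and without the replicate block (0.0723), and the Ento+AZD call held in both (at most 0.0085 with any library left out, 0.0138 without the block). The gene was singled out after its values were seen.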
